A study of Mus musculus with 47 samples.

Results

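Omp encodes olfactory marker protein, the classical marker of mature olfactory sensory neurons. It was found by its symbol in the deposited gene tables, where it is 1 of 54532 genes, and is followed here through 47 polyadenylated-RNA sequencing libraries of mouse olfactory epithelium. The animals labelled OIVT;Kir2.1 (Kir) gave 24 libraries and the wild-type animals, labelled C57BL/6J (WT), gave 23. Both genotypes were sampled at postnatal days 0, 3, 5, 7, 10, 14 and 21 (P0 to P21). There were 4 Kir and 4 WT libraries at P0 and at P7, 4 Kir and 3 WT libraries at P10, and 3 of each genotype at the other ages. Kir2.1, the product of Kcnj2, is a potassium channel of the inward-rectifier class. The labels do not spell out OIVT and give no promoter or driver for the channel. Whether the Omp locus of the Kir animals is altered, as it is in some mouse lines that drive a transgene in these neurons, is not stated in the labels, and its part in the Omp values was not tested. Nor do the labels tie each library to an animal of its own. P-values therefore set differences against the scatter of libraries, part of which may be technical and which may not be that of animals.

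Olfactory sensory neurons are renewed through life from basal stem cells. Dividing progenitors give rise to immature neurons, which grow an axon and make the growth-cone protein Gap43, and these become mature neurons that bear odorant-sensing cilia and make Omp. Omp is a small, abundant cytoplasmic protein. Work in mice lacking it has tied it to the speed of the odor response and to the handling of cyclic AMP and calcium in the neuron.

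In GENCODE mouse release M21 on build GRCm38, Omp (ENSMUSG00000074006) lies on the minus strand at chr7:98143359-98145502. It has 1 exon of 2144 bases, with a coding part of 489 bases at 98144930 to 98145418, and no intron of its own. The whole gene sits inside an intron of Capn5 (ENSMUSG00000035547, chr7:98121559-98178274), a calpain protease gene on the same strand. No Capn5 exon overlaps it, but the nearest upstream Capn5 exon, at 98145516 to 98145756, is 13 bases away. The start of the coding part, chr7:98145269-98145418 on the minus strand, is shown to identify the transcript that was counted, with the start codon in capitals.
Omp: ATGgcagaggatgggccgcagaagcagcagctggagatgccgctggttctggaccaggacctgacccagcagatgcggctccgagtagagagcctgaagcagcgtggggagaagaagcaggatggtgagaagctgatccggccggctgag

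Libraries held 8107547 to 30385151 reads counted to genes, of which 1855 to 68280 were counted to Omp, so that counting error alone was at most 2.32% of an Omp count. Kcnj2 stood at 33.0 to 449 TPM, a level scaled for gene length and library depth, in Kir libraries and 8.93 to 31.2 TPM in WT libraries, and was above every WT library of its age in each Kir library. Kcnj2 was low in 5 Kir libraries: 33.0 TPM in replicate 3 of P3, 46.1 and 52.8 TPM in replicates 1 and 4 of P7, and 58.05 and 64.6 TPM in replicates 1 and 2 of P21. Unmapped reads made up 17.7% and 33.5% of Kir P10 replicates 1 and 2. WT P0 replicate 3 carries P3 in its stage label and was placed in P0 by its title, and WT P0 replicate 1 had the highest summed level of 13 brain neuron markers, 383 TPM. Sample titles open with cry3, cry4 or cry6, a prefix that the labels leave unexplained. It is cry6 at P5 and P10 and cry4 at the other ages, except that P7 mixes 1 cry4, 2 cry6 and 1 cry3 library in either genotype.

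Omp rose strongly with age in both genotypes. At P0 the Kir libraries held 134, 208, 172 and 109.6 TPM and the WT libraries 210.4, 284, 202 and 267 TPM. At P3 the Kir libraries held 348, 205 and 394 TPM and the WT libraries 655, 528 and 556 TPM. The P0 ranges overlapped through WT replicate 3, which lay below the highest Kir library, and the P3 ranges did not overlap. At P5 the values were 482, 463 and 562 TPM in Kir and 735, 748 and 884 TPM in WT, again with every Kir library below every WT library. At P7 the Kir libraries held 905, 546, 759.7 and 671 TPM and the WT libraries 828, 720.3, 1022 and 761 TPM. The genotypes were intermingled at this age, the second highest of the 8 libraries being Kir replicate 1.

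At P10 Omp stood at 855, 868, 1215 and 855 TPM in Kir libraries and 1235, 1496 and 1070.4 TPM in WT libraries. Of the Kir libraries at this age, replicate 3 alone reached into the WT range. At P14 the values were 1114, 952 and 1196 TPM in Kir and 1480.3, 1621 and 1638 TPM in WT, and at P21 they were 1401, 1307 and 1313 TPM in Kir and 1799, 1823 and 1732 TPM in WT. Neither age showed any overlap. By rank of TPM among all genes of its library, Omp ran from place 1340 in a Kir P0 library to place 41 in a WT P21 library.

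**Figure D1:**
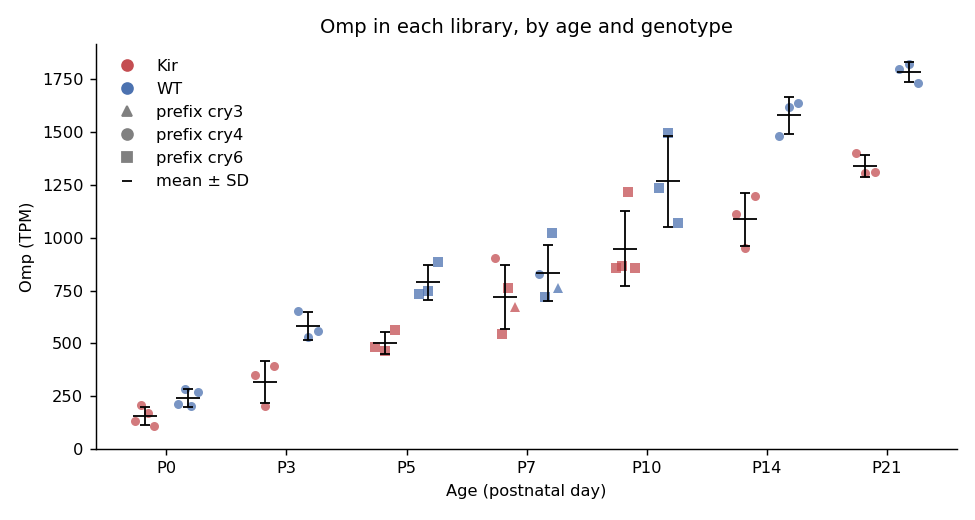
Omp level (TPM, vertical axis) in each of the 47 libraries by age (horizontal axis), Kir left of WT at each age; symbols give the title prefix and black marks the mean ± SD of the group. The Kir mean lies below the WT mean at all 7 ages, with no overlap of libraries at P3, P5, P14 and P21.

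Mean Omp at P21 was 8.60 times that at P0 in Kir and 7.41 times in WT. Counts were tested in a single edgeR quasi-likelihood fit of all libraries, with terms for group and prefix, adjusted by Benjamini-Hochberg over 19927 genes, and a change was called at an adjusted p below 0.05. The log2 fold change of P21 over P0 was 3.04 ± 0.18 in Kir (SE, adjusted p = 5.32e-15) and 2.78 ± 0.18 in WT (adjusted p = 3.83e-14). These comparisons called 48.9% of genes in Kir and 50.8% in WT, so a call alone was common. The size of the rise was not: in WT 1.09% of all tested genes rose by more on the log2 scale. The rise in Kir minus that in WT was 0.26 ± 0.25 (95% interval -0.25 to 0.77), which did not pass the test (adjusted p = 0.926, 0.286% of genes called). A test for any difference among the 7 ages was passed in Kir (adjusted p = 3.67e-14, 54.1% of genes called) and in WT (adjusted p = 2.52e-13, 49.8% of genes called). In bulk tissue, a change in the number of mature neurons and a change in the Omp RNA of each neuron cannot be told apart, here or in any result that follows.

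Of the steps between consecutive ages, the first passed the test in both genotypes. From P0 to P3 the log2 fold change was 1.03 ± 0.18 in Kir (adjusted p = 0.000123) and 1.15 ± 0.18 in WT (adjusted p = 2.08e-05), in comparisons that called 17.8% of genes in Kir and 20.5% in WT. At P3 the mean had reached 23.5% of its P21 level in Kir and 32.5% in WT, at P7 53.8% in Kir and 46.7% in WT, and at P14 81.1% in Kir and 88.5% in WT. No later step between consecutive ages passed the test in either genotype. From P5 over P3 to P21 over P14, these 5 steps called 0%, 0.507%, 1.53%, 0.251% and 0.472% of genes in Kir and 0.00502%, 0.0351%, 0%, 0% and 0.0452% in WT, so few genes passed at all. The steps from P3 to P5 and from P10 to P14 set libraries of unlike prefix against each other and carry a wider error. P5 over P3 was at 0.76 ± 0.27 in Kir and 0.60 ± 0.27 in WT. Without the prefix term P5 over P3 was called in both genotypes and P14 over P10 in neither. P5 over P3 exceeded P3 over P0 in WT with WT P0 replicate 3 placed at P3 (0.844 and 0.835), and in Kir without Kir P3 replicate 3 (1.01 and 0.83), so the steps are not ranked. The prefix itself was not called for Omp, at 0.09 ± 0.20 for cry6 over cry4 (adjusted p = 0.821) and -0.27 ± 0.23 for cry3 over cry4 (adjusted p = 0.771), by edgeR. This term was estimated from the few libraries of P7, the only age that mixes prefixes, so it says little of the other ages. The steps from P5 to P7 and from P7 to P10 lean on it as well.

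On average, Kir libraries had less Omp than WT libraries of the same age, though the ranges in TPM overlapped at P0, P7 and P10. Averaged over the 7 ages with equal weight, the log2 fold change of Kir over WT was -0.54 ± 0.07 (95% interval -0.68 to -0.40, adjusted p = 3.02e-07 by edgeR), a fold of 0.688. In this comparison 7.43% of all genes were called lower and 3.12% higher, and 3.14% of genes fell by more than Omp. Mean TPM in Kir was 64.7% of that in WT at P0, 54.4% at P3, 63.7% at P5, 86.5% at P7, 74.8% at P10, 68.8% at P14 and 75.1% at P21. The same direction was thus seen at 7 of 7 ages. A permutation of genotype within age on log2(TPM + 1) gave a mean difference of -0.55 with p = 1e-05, two-sided, the smallest that 100000 permutations can give. Without any 1 of the 47 libraries, the 5 low in Kcnj2 included, the averaged log2 fold change stayed between -0.56 and -0.51, with adjusted p from 4.6e-08 to 1.41e-06.

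Single ages carried less weight. The log2 fold change was -0.64 ± 0.16 at P0 (156 ± 43.3 TPM in 4 Kir and 240.8 ± 40.6 TPM in 4 WT libraries, SD; adjusted p = 0.0450 by edgeR) and -0.76 ± 0.19 at P3 (315 ± 98.5 TPM in 3 Kir and 579.8 ± 66.4 TPM in 3 WT libraries; adjusted p = 0.0454). Calls at these ages were few, 1.09% of genes at P0 and 0.703% at P3. Both calls lay at the edge of the threshold. At P0 the call was lost when Kir replicate 1, 3 or 4 or WT replicate 1, 2 or 4 was left out (adjusted p = 0.104, 0.0523, 0.275, 0.116, 0.112 and 0.0703 in that order). At P3 it was lost without Kir replicate 1 or 2 or WT replicate 1, 2 or 3 (adjusted p = 0.097, 0.38, 0.18, 0.0638 and 0.111), while without Kir replicate 3, the library low in Kcnj2, it was 0.0116. Placing WT P0 replicate 3 at P3, where it would be the lowest WT library, ended both calls, with -0.71 at P0 (adjusted p = 0.113) and -0.52 at P3 (adjusted p = 0.324). At P3 the deviations of same-numbered Kir and WT libraries from their group means correlated in all 3 pairs (r = 0.172, 0.210 and 0.286 across genes), and with the replicate number as a block in a fit of P0, P3, P14 and P21 the P3 value was -0.82 and not called (adjusted p = 0.0844).

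From P5 on no single age passed the test. The estimates were -0.60 ± 0.19 at P5 (adjusted p = 0.304), -0.31 ± 0.16 at P7 (adjusted p = 1), -0.55 ± 0.18 at P10 (adjusted p = 0.0898), -0.52 ± 0.19 at P14 (adjusted p = 0.292) and -0.38 ± 0.19 at P21 (adjusted p = 0.593), all by edgeR. The shares of genes called at these ages were 0.105%, 0.0903%, 3.13%, 1.17% and 0.743%. Within prefixes at P7, the cry4 libraries held 905 TPM in Kir and 828 TPM in WT, the cry3 libraries 671 TPM in Kir and 761 TPM in WT, and the cry6 libraries 546 and 759.7 TPM in Kir and 720.3 and 1022 TPM in WT. At P10 the value moved with single libraries: without Kir replicate 3 it was -0.73 and called (adjusted p = 0.00748), and without Kir replicates 1 and 2, the libraries with many unmapped reads, it was -0.35 (adjusted p = 1). Whether the genotype difference varied with age was tested directly and did not pass (adjusted p = 1 by edgeR, 0.381% of genes called), so that the small difference at P7 and the large one at P3 are not shown to differ.

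Exact permutation tests on log2(TPM + 1) at each age, two-sided, gave p = 0.0571, 0.1, 0.1, 0.314, 0.114, 0.1 and 0.1 from P0 to P21, or 0.133 at 6 ages and 0.314 at P7 after adjustment over the 7 ages. The smallest p these designs allow is 0.1 with 3 against 3 libraries, 0.0571 with 4 against 3 and 0.0286 with 4 against 4. The libraries of the genotypes did not overlap at P3, P5, P14 and P21. Among all tested genes, TPM was likewise lower in Kir with no overlap for 10.2%, 11.6%, 6.95% and 8.58% at these ages, so that the separation at any single age is not rare. In CPM, counts scaled by the edgeR library size, the genotypes did not overlap at P0 either, as was the case for 1.04% of genes.

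**Figure D2:**
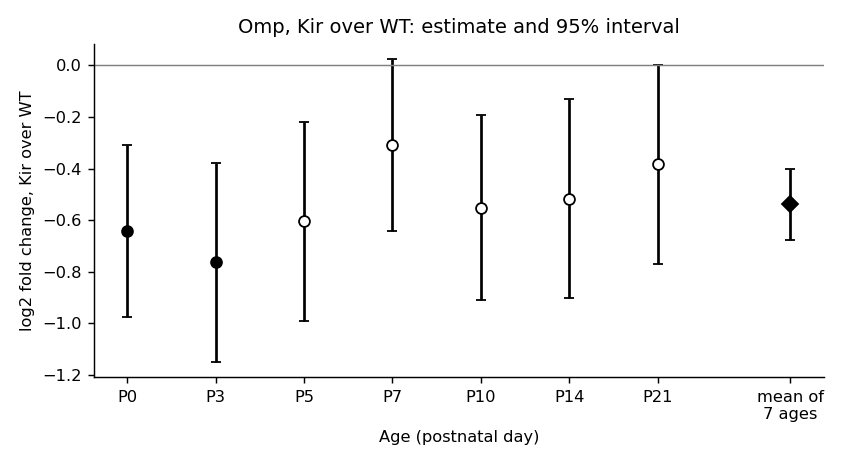
Log2 fold change of Omp, Kir over WT (vertical axis), at each age and as the mean of the 7 ages (horizontal axis), with 95% intervals from the edgeR fit; filled symbols passed the test. All 8 estimates are below 0, and the averaged one, at -0.54, has the narrowest interval.

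Ordered by mean TPM, the 14 groups ran Kir P0, WT P0, Kir P3, Kir P5, WT P3, Kir P7, WT P5, WT P7, Kir P10, Kir P14, WT P10, Kir P21, WT P14 and WT P21. The Kir groups of P5, P7, P14 and P21 had lower means than the WT group of the age before, and those of P3 and P10 higher means. Kir P21, at 1340.2 ± 52.9 TPM, lay below WT P14, at 1579.8 ± 86.6 TPM, with no overlap. Kir P5, at 502 ± 52.3 TPM, and WT P3, at 579.8 ± 66.4 TPM, overlapped. Of the 13 pairs of neighbours in the order, only Kir P3 and Kir P5, Kir P21 and WT P14, and WT P14 and WT P21 had ranges that did not overlap.

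Omp was then set beside 30 other genes of mature olfactory neurons, many of them parts of the odor transduction chain. This list was chosen with earlier results of these data known, so its counts, medians and scores are descriptive, here and in what follows. Odorant receptors act through the G protein subunit Gnal and the adenylyl cyclase Adcy3 to open a cyclic nucleotide-gated channel made of Cnga2, Cnga4 and Cngb1. In Kir over WT averaged over ages, 24 of the 30 were called lower, none higher and 6 not called, by edgeR, against 7.43% of all genes lower; the list's median log2 fold change was -0.34, against 0.01 over all genes. Of the 30, only S100a5, Kirrel2, Nrn1l and Slc17a6 fell by more than Omp. S100a5, a calcium-binding protein, was at -1.20 ± 0.10 (adjusted p = 3.8e-11), and Kirrel2, a cell adhesion protein of olfactory axons, at -1.09 ± 0.13 (adjusted p = 4.11e-08). Slc17a6, the vesicular glutamate transporter of these neurons, was at -0.62 ± 0.07 (adjusted p = 8.81e-08), and Nrn1l, a relative of neuritin, at -0.81 ± 0.16 (adjusted p = 0.000473).

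Genes of the transduction chain fell with smaller estimates, and differences between genes were not tested. The phosphodiesterase Pde1c was at -0.50 ± 0.05 (adjusted p = 1.11e-09), Adcy3 at -0.45 ± 0.07 (adjusted p = 3.15e-05), Gnal at -0.40 ± 0.06 (adjusted p = 1.96e-05) and Cnga2 at -0.28 ± 0.06 (adjusted p = 0.000315), all by edgeR. Slc24a4, Slc12a2, Pde4a, Rgs11, Ablim3 and Calb2 did not pass, with values between -0.17 and 0.17.

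In WT P21 over P0, a comparison that shares WT libraries with the one above, 26 of the 30 were called higher and 1, Ablim3, lower, against 24% and 26.8% of all genes. The list's median log2 fold change was 1.76, against -0.05 over all genes. S100a5 at 3.30 ± 0.27, Cnga4 at 2.88 ± 0.18 (adjusted p = 1.13e-14) and Cngb1 at 2.79 ± 0.23 rose by more than Omp at 2.78, and the others by less, Cnga2 at 2.27 ± 0.15 (adjusted p = 2.15e-14) among them. For Cnga4 and Cngb1 the excess over Omp was smaller than the standard errors.

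**Figure D3:**
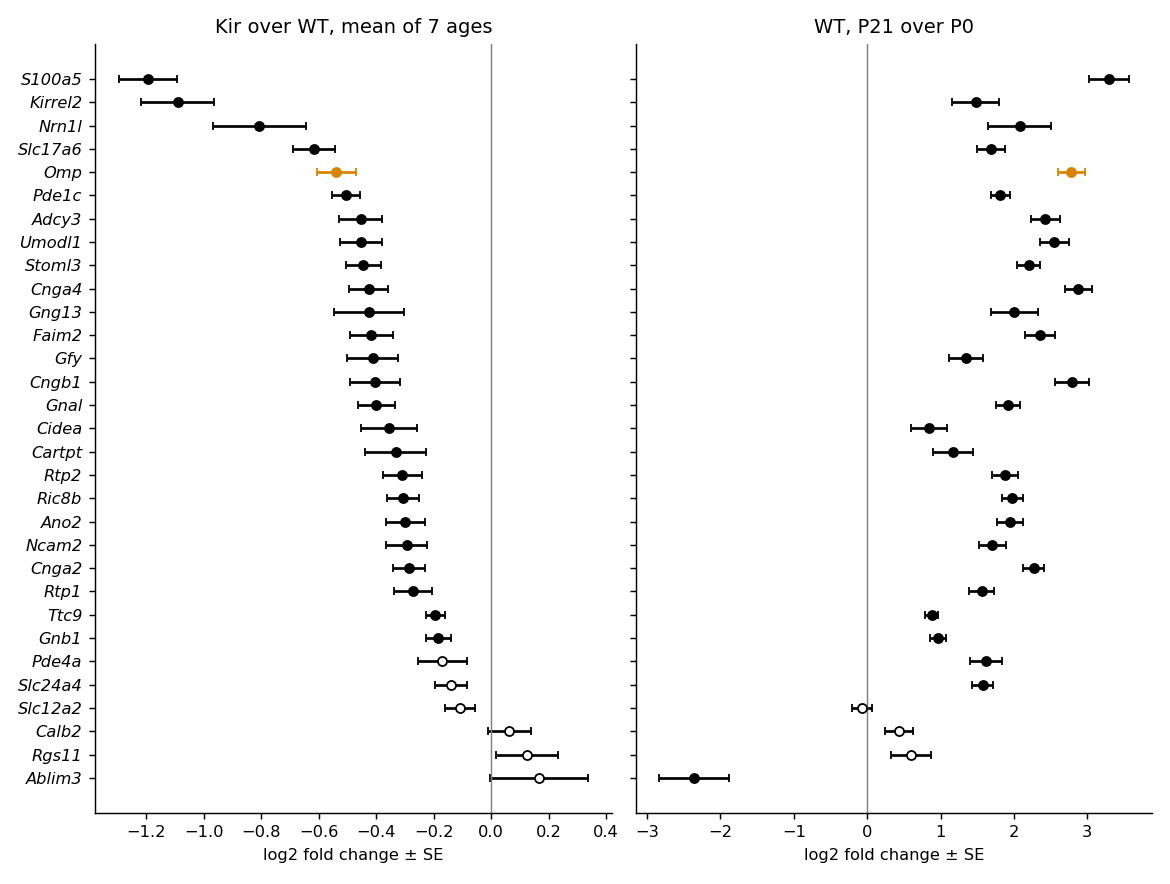
Log2 fold change ± SE (horizontal axes) of Omp (orange) and 30 mature neuron genes in Kir over WT averaged over ages (left) and in WT P21 over P0 (right), ordered by the left panel; filled symbols passed the test. Omp at -0.54 has 4 genes above it on the left, and 26 of the 30 genes lie above 0 and are filled on the right.

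Relative to the mean of the 30 genes, Omp was also lower in Kir on average, which was not tested. That mean takes in genes not called between the genotypes, and 3 of the 30 had estimates above 0 in Kir over WT averaged over ages. In that comparison 4 of the 30 lay below Omp and 26 above it, some of them close, such as Pde1c at -0.50 ± 0.05 beside Omp at -0.54 ± 0.07. For each library, the mean log2(TPM + 1) of the 30 genes was taken as a mature neuron score, and Omp was set against it. Omp minus the score was 1.44 ± 0.05 at P0 in Kir and 1.68 ± 0.11 in WT (SD, n = 4 each), 2.69 ± 0.11 in Kir (n = 4) and 2.91 ± 0.03 in WT (n = 3) at P10, and 2.65 ± 0.09 in Kir and 2.85 ± 0.05 in WT (n = 3 each) at P21. It was lower in Kir at 7 of 7 ages, by 0.18 on average and by between 0.08 at P7 and 0.24 at P0. The libraries of the genotypes did not overlap at P0, P3, P10 and P21, where 0.0301%, 0.236%, 0.336% and 1.94% of all tested genes were lower in Kir with no overlap on the same measure. The score itself was also lower in Kir at 7 of 7 ages, by 0.37 on average, which raises genes outside the class in Kir on this measure, so these shares say little of Omp. Among the 30 mature neuron genes, each set against the mean of the others, 1, 5, 3 and 7 were lower in Kir with no overlap at these ages. In both genotypes Omp minus the score was lowest at P0 and highest at P10.

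Gap43, the growth-cone protein of immature neurons, gave another yardstick. Its own log2 fold change was 0.01 ± 0.08 in Kir over WT averaged over ages (adjusted p = 0.988 by edgeR) and 0.08 ± 0.22 in WT P21 over P0 (adjusted p = 0.793). At P0 the ratio of Omp to Gap43 in TPM was 0.827 ± 0.125 in Kir and 0.970 ± 0.341 in WT (SD, n = 4 each). At P5 it was 1.81 ± 0.15 in Kir and 2.71 ± 0.15 in WT, at P14 2.33 ± 0.10 in Kir and 4.53 ± 0.41 in WT, and at P21 3.27 ± 0.60 in Kir and 5.72 ± 0.58 in WT (n = 3 each). In both genotypes the mean ratio was highest at P21. The WT libraries of P0 held ratios of 0.489, 1.27, 0.987 and 1.13, and without replicate 1, the library with the high brain neuron markers, their mean was 1.13 ± 0.14 (n = 3). It was lower in Kir at 7 of 7 ages, with no overlap at P5, P10, P14 and P21. Gap43 itself averaged 468 ± 65.1 TPM in Kir and 350.2 ± 27.4 TPM in WT at P14, and 419 ± 76.8 TPM in Kir and 315 ± 37.8 TPM in WT at P21. At these 2 ages 38.5% and 39.1% of all tested genes were lower relative to Gap43 with no overlap, so that the ratio there says little of Omp in particular; at P5 and P10 the shares were 4.71% and 2.12%.

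**Figure D4:**
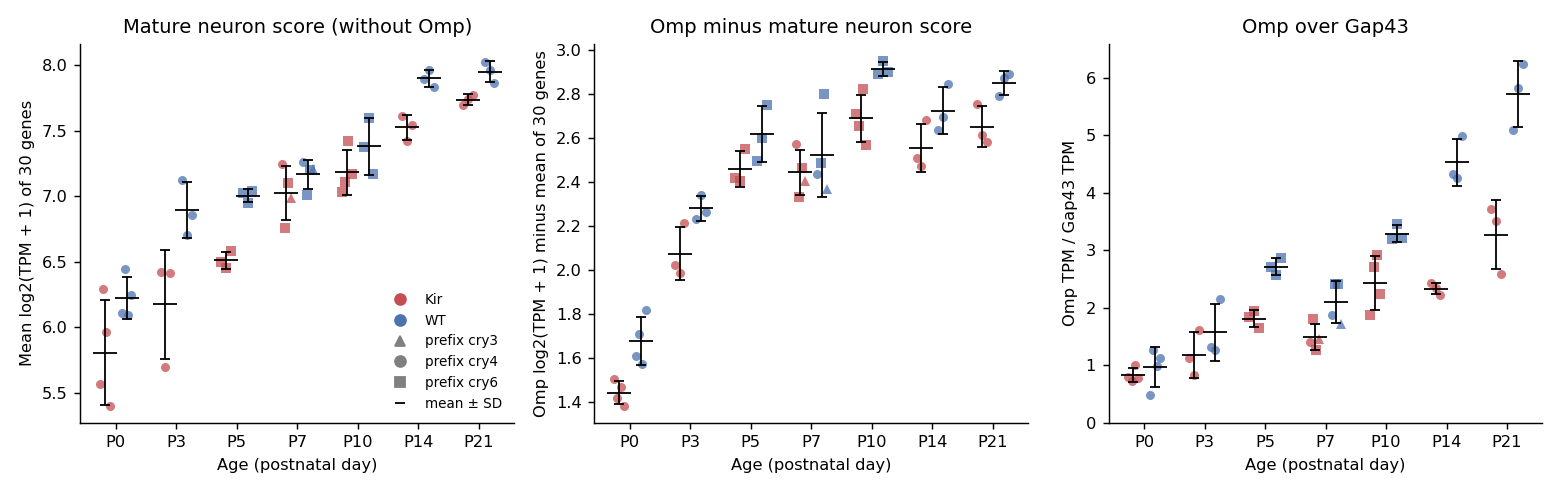
Mature neuron score of 30 genes without Omp (left, mean log2(TPM + 1)), Omp minus that score (middle, log2 scale) and Omp TPM over Gap43 TPM (right) in each library by age, Kir left of WT, with the mean ± SD. In the middle panel the Kir libraries lie below all WT libraries at P0, P3, P10 and P21, and in the right panel at P5, P10, P14 and P21.

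Genes of earlier and neighbouring cells were compared between the genotypes, where 10.5% of all genes were called. Among 23 immature neuron genes in Kir over WT averaged over ages, Ablim1, an actin-binding protein, was called higher (0.15 ± 0.04, adjusted p = 0.00247 by edgeR, not called by limma on log2(TPM + 1)) and Hdac9, a histone deacetylase, lower (-0.31 ± 0.06, adjusted p = 0.000608). None of 15 tested progenitor genes and none of 17 tested sustentacular genes, which mark the supporting cells of the epithelium, was called by edgeR, DESeq2 or limma; 2 and 0 of them had an unadjusted p below 0.05. Lists of this size would hold few calls at the share over all genes, so these counts are not a result about these cells. The nearest values were Ccnb1, a mitotic cyclin, at 0.24 ± 0.11 (adjusted p = 0.163) and Steap4, a metalloreductase, at 0.15 ± 0.09 (adjusted p = 0.321).

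In WT P21 over P0, set against 24% of tested genes higher and 26.8% lower, 13 of the 15 progenitor genes fell, led by Kit, a receptor tyrosine kinase of neuronal progenitors (-1.54 ± 0.12, adjusted p = 1.25e-12), and Birc5, a mitotic regulator (-1.57 ± 0.12, adjusted p = 1.99e-12), and none rose. Of the 23 immature neuron genes 8 rose and 6 fell (3 fell by limma on log2(TPM + 1), and without WT P0 replicate 1 10 rose and 4 fell), a share of calls near that over all genes, with Hdac9 at 1.93 ± 0.16 and the chemokine receptor Cxcr4 at -1.12 ± 0.13. Of the 17 sustentacular genes 11 rose and 4 fell, with the cytochrome Cyp1a2 at 5.53 ± 0.26 and the glucose transporter Slc2a1 at -1.12 ± 0.17.

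The transcription and chromatin factors that have been tied to Omp were examined next. Olf-1, the name of an Ebf family factor in olfactory neurons, was found in rat through binding to the Omp promoter, Lhx2 and Emx2 are homeodomain factors of these neurons, Rfx3 is a factor of ciliated cells, Atf5 is needed for olfactory neurons to differentiate in mice and Kdm1a is a histone demethylase. None of the 12 was called in Kir over WT averaged over ages by edgeR, DESeq2 or limma, against 10.5% of all genes by edgeR, and 1 had an unadjusted p below 0.05; Ebf2 was at -0.13 ± 0.06 (adjusted p = 0.156 by edgeR), Ebf4 at -0.15 ± 0.09, Rfx3 at -0.13 ± 0.07, Atf5 at -0.13 ± 0.07, Ebf3 at -0.12 ± 0.06 and Ebf1 at -0.07 ± 0.05. The others, Lhx2, Emx2, Kdm1a, Ldb1, Bptf and Nfia, lay between -0.05 and 0.05. Of the 12 estimates 4 lay above 0. A list of 12 would hold few calls at the share over all genes, so the lack of calls is not a result about these factors. In WT P21 over P0 6 of the 12 rose and 1 fell, against 24% and 26.8% of all genes. Ebf4 rose by 1.54 ± 0.23 (adjusted p = 7.7e-07), Rfx3 by 0.98 ± 0.18 (adjusted p = 2.32e-05), Ebf2 by 0.77 ± 0.15 (adjusted p = 6.61e-05), Atf5 by 0.65 ± 0.19, Ebf1 by 0.57 ± 0.14 and Ebf3 by 0.50 ± 0.16, while Kdm1a fell by 0.36 ± 0.09 (adjusted p = 0.000766). Lhx2, at 0.31 ± 0.20, and Emx2, at 0.05 ± 0.21, did not pass, nor did Nfia, Ldb1 and Bptf. The calls of Ebf3 and Kdm1a were not made by limma on log2(TPM + 1). Each of these rises was smaller than that of Omp.

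Bex proteins are small proteins of neurons, and a member of the family binds Omp. Of the 5 listed family members, 4 passed the filter on low counts. None of these was called in Kir over WT averaged over ages by edgeR, DESeq2 or limma, against 10.5% of all genes by edgeR. None had an unadjusted p below 0.05 by edgeR, with values from -0.14 ± 0.09 for Bex2 to 0.21 ± 0.18 for Bex4. A list this short would hold few calls at that share, so the count is not a result about the family. In WT P21 over P0, Bex3 fell by 0.59 ± 0.21 (adjusted p = 0.0201 by edgeR) and Bex1 by 0.68 ± 0.27 (adjusted p = 0.0384), Bex4 was at -0.99 ± 0.47 and Bex2 at -0.16 ± 0.24. Limma on log2(TPM + 1) called neither Bex3 nor Bex1, and upper-quartile scaling also ended the call of Bex1. Both calls were lost without WT P0 replicate 1, with Bex3 at -0.39 (adjusted p = 0.132) and Bex1 at -0.21 (adjusted p = 0.490). The summed level of the 5 genes was 650.5 TPM in that library, 320 to 400 TPM in the other WT P0 libraries and 314 to 341 TPM at P21 in WT. None of the 4 was called higher with age, against 24% of all genes higher and 26.8% lower, and 4 genes are too few to read this count.

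Markers of cells outside the olfactory lineage were counted as well. In Kir over WT averaged over ages, 0 of 10 respiratory ciliated, 0 of 10 fibroblast, 0 of 7 red cell and 0 of 9 endothelial genes were called by edgeR, against 10.5% of all genes. Of these lists, 1, 5, 0 and 0 genes had an unadjusted p below 0.05. Lists of this size would hold few calls at that share, so these counts are not a result about these cells. DESeq2 called 1 fibroblast gene and none of the others, and limma none. All 10 fibroblast estimates lay above 0 (0.11 to 0.54, median 0.36), as did all 7 red cell estimates (0.20 to 0.56, median 0.28), against a median of 0.01 over all genes. The summed fibroblast level was 618 to 5804 TPM in Kir libraries and 477 to 5027 TPM in WT libraries, the summed red cell level 355 to 7364 TPM in Kir and 320 to 2239 TPM in WT, and their part in the Omp difference was not tested. Kir P0 replicate 4, the library with the least Omp, had the highest fibroblast sum of P0, 2682 TPM; without it the averaged Omp value was -0.52 (adjusted p = 2.68e-07 by edgeR). Of 10 tested brain neuron genes 3 were called lower, against 7.43% of all genes. Syn1 was at -0.57 ± 0.11 (adjusted p = 0.000212 by edgeR) and Snap25 at -0.35 ± 0.07 (adjusted p = 0.000519). Both encode synaptic vesicle and fusion proteins that olfactory neurons also make. Tbr1, a cortical and bulb transcription factor, was at -0.60 ± 0.20 (adjusted p = 0.0408). The call of Tbr1 was not made by limma on log2(TPM + 1) and was lost without Kir P10 replicates 1 and 2. The summed level of the 13 brain neuron genes was 63.2 to 185 TPM in Kir libraries and 87.1 to 383 TPM in WT libraries, none of the genes was at 0 in every library, and their part in the Omp difference was not tested. Without WT P0 replicate 1, the library with the highest sum, the averaged Omp value was -0.55 (adjusted p = 3.5e-07). In WT P21 over P0, 24% of all genes were called higher and 26.8% lower. Against these shares, 8 of 9 endothelial, 7 of 10 ciliated and 7 of 10 brain neuron genes fell, and fibroblast genes went both ways, 4 up and 3 down. The brain neuron count rests on WT P0 replicate 1: without it 3 of the 10 fell and 3 rose. The brain neuron sum was 383 TPM in that library, 87.1 to 125 TPM in the other WT P0 libraries and 191 to 205 TPM at P21 in WT. The ciliated and brain lists held 1 riser each, the endothelial list none and the red cell list 1 of 7; by limma on log2(TPM + 1) the ciliated and brain lists held 2 each and the red cell list 0.

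Genes with the course most like that of Omp were found by Pearson's r of log2(TPM + 1) over the 47 libraries, among 13202 genes with a mean of at least 5 TPM. The libraries share age, genotype and depth, so the values are descriptive. Plekhb1, a pleckstrin-homology protein of photoreceptors and olfactory neurons, was closest at r = 0.994. It was followed by Cnga4 (0.987), Adcy3 (0.984), the extracellular protein Umodl1 (0.980), Cngb1 (0.977), the potassium channel Kcnc4 (0.976), the dopamine receptor Drd2 (0.976), the G protein subunit Gng13 (0.975), the odorant receptor chaperone Rtp2 (0.971) and Klhl5, a kelch protein (0.971). The median was 0.919 over the 29 mature neuron genes compared and 0.098 over all genes.

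Another comparison took the group means away, so that only the scatter of libraries around the mean of their age and genotype remained. Plekhb1 was again closest at r = 0.938, before Kcnc4 (0.898), Umodl1 (0.875), Klhl5 (0.871), Cngb1 (0.868), Adcy3 (0.862), the sulfotransferase Sult4a1 (0.861), the WD-repeat gene Wdr54 (0.855), Drd2 (0.849) and Trim45 (0.839). The median was 0.709 over the mature neuron list and 0.197 over all genes, with 0.537 over the immature neuron, 0.483 over the regulator and 0.393 over the sustentacular list. Lowest were the ecto-nucleotidase Nt5e (-0.684), Abracl (-0.661), Nudt19 (-0.650), the epithelial transcription factor Ehf (-0.643) and the secretory GTPase Rab27b (-0.634). With log2 CPM in place of TPM, 6 of the 10 genes of the first list, 5 of the 10 of the second and 1 of these 5 were named again, so the lowest genes depend on the unit.

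The values of Plekhb1 are given as a description, since it was chosen for its likeness over these same libraries. It averaged 175 ± 34.8 TPM at P0 in Kir and 249 ± 39.5 TPM in WT (SD, n = 4 each), and 979 ± 41.2 TPM at P21 in Kir and 1367 ± 102 TPM in WT (n = 3 each). Its log2 fold change was -0.49 ± 0.06 in Kir over WT averaged over ages and 2.34 ± 0.16 in WT P21 over P0 (SE).

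**Figure D5:**
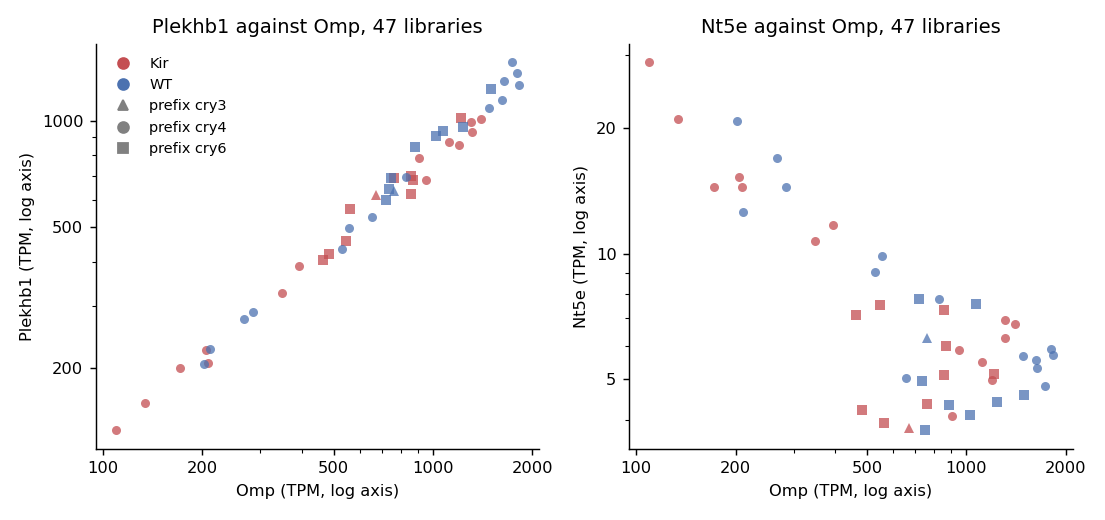
Level of Plekhb1 (left) and Nt5e (right) against that of Omp in the 47 libraries, TPM on log axes; red symbols are Kir, blue symbols WT, and shapes give the title prefix. Plekhb1 libraries of both genotypes lie along a common line (r = 0.994). Nt5e was the lowest gene after group means were taken away. The panel shows levels with group means left in, where Nt5e is highest in libraries of P0, the age with the least Omp on average.

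Capn5, whose intron holds Omp, had a low level and a flatter course. It averaged 13.7 ± 2.2 TPM at P0 in Kir and 14.8 ± 2.3 TPM in WT (SD, n = 4 each), and 19.6 ± 1.4 TPM at P21 in Kir and 25.7 ± 4.1 TPM in WT (n = 3 each). By edgeR its log2 fold change was -0.13 ± 0.06 in Kir over WT averaged over ages (adjusted p = 0.140) and 0.82 ± 0.14 in WT P21 over P0 (adjusted p = 1.29e-05). Both genes are on the same strand, so a strand setting would not part unspliced Capn5 reads from Omp reads; every library held far more Omp than Capn5 in TPM.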

How the data were processed

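Olfactory epithelium RNA was extracted in TRIzol and made into mRNA-Seq libraries with an Illumina kit, per the labels' protocols. The authors deposited whole-number read counts per gene and, in a separate table, TPM per gene; the submitters' processing notes name STAR 2.6.1c, bcl2fastq 2.18, RSEM and build mm10, and no strand setting is stated there or in the labels. Lines of the count table that name no gene, 23.4% to 45.4% of reads, stayed out of library sizes and tests. Groups came from the sample titles. Replicates were compared in 57 pairs of the same group, and all pairs differed by more than sampling, 6.63 to 104 times its variance.

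Counts were tested with edgeR 4.0.16 in R 4.3.3 (TMM, filterByExpr by group, which left 19927 genes; quasi-likelihood F tests, two-sided). TPM was used for levels, for permutation tests in SciPy and for likeness between genes, on log2(TPM + 1). Alternatives were other scaling factors, DESeq2 1.42.0, limma 3.58.1 on log2 TPM, no filter, no prefix term, the other placing of WT P0 replicate 3, a replicate block, the groups of each age alone and each library left out. The members and gene lists were chosen with earlier results of these data known. The genes named are Omp, Kcnj2, Capn5, up to 4 members with the smallest adjusted p of each list in each comparison (all for the Bex and regulator lists), and the genes ranked by likeness. Other genes, such as Gap43, Gnal and the members past Omp in size, were named after their values were seen. A gene tied to Omp regulation is not reported here. The fit was tested on simulated data.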

Additional observations from a re-analysis of the deposited data

Results flagged for a closer look

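In the Kir P10 group the Omp level of replicate 3, 1215 TPM, stood far above those of the other 3 libraries, 855 to 868 TPM. Its gap to the nearest library was 0.963 of the whole range, above the critical value of 0.829 for 4 libraries. By chance a gap passes this critical value in about 1 in 20 groups. Only groups of 4 libraries were examined, in 15 combinations of group and measure. Replicates 1 and 2 of this group had 17.7% and 33.5% unmapped reads, against 1.72% in replicate 3 and 1.47% in replicate 4; the part of unmapped reads in the difference was not tested.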

How the results depend on the processing

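The averaged Kir difference, both rises over P0 to P21 and the tests for any age difference kept their direction and their call under every alternative run. The call at P0 was lost with WT P0 replicate 3 at P3 (-0.71), with limma on log2(TPM + 1) (-0.65) or log2(TPM + 0.1) (-0.65) and with the 2 groups of that age alone (-0.65, adjusted p = 1). The call at P3 was lost with that placing (-0.52), without the prefix term (-0.76, adjusted p = 0.057) and with its 2 groups alone (-0.77, adjusted p = 0.141). Leaving out single libraries gave -0.76 to -0.51 at P0, -1.02 to -0.59 at P3 and -0.73 to -0.41 at P10. Without the prefix term P5 over P3 was called, at 0.85 in Kir and 0.69 in WT, and WT P7 over P5 (-0.064) and WT P14 over P10 (-0.00346) turned sign. Kir P14 over P10 turned sign with limma (-0.0118 and -0.0119), without Kir P10 replicates 1 and 2 (-0.075) and among single libraries left out (-0.051 to 0.29), and WT P7 over P5 did so among single libraries left out (-0.20 to 0.14); none of these steps was called. Slc4a1, a red cell gene called in WT P21 over P0, was at -0.15 with limma on log2(TPM + 0.1), and Slc17a7, a brain neuron gene called lower there, at 0.15 without WT P0 replicate 1. The cause was not tested. Leaving out Kir P10 replicates 1 and 2, leaving out WT P0 replicate 1 for the lists, and the fit of 4 ages without a block, were chosen after seeing the data.

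Titles share replicate numbers at P0, P3, P14 and P21. Deviations of same-numbered Kir and WT libraries of the same age from their group means correlated at -0.19 to 0.30 over 13 pairs. All 3 pairs of P3 were above 0.1. The main fit did not take the numbers to pair libraries. These correlations compare libraries within an age and cannot tell whether the numbers pair libraries across ages. With a replicate block the averaged value over these ages was -0.59 (adjusted p = 0.00171), against -0.58 without it (adjusted p = 0.000267), and P0 (-0.67, adjusted p = 0.243) and P3 (-0.82, adjusted p = 0.0844) were not called. With 3 or 4 libraries a group, single ages are limited by the spread between libraries and not by depth.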

Other observations

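S100a5, the mature neuron gene with the largest averaged difference, had close means in both genotypes at P21; it was picked after its values were seen. It averaged 962 ± 146 TPM in Kir and 2497 ± 266 TPM in WT at P14, and 3247 ± 540 TPM in Kir and 3281 ± 311 TPM in WT at P21 (SD, n = 3 each). Omp at P21 was lower in every Kir library than in every WT library. The change in the S100a5 difference between these ages was not tested. Kcnj2 averaged 435 ± 20.2 TPM in Kir and 24.3 ± 2.1 TPM in WT at P14, and 136 ± 130.05 TPM in Kir and 29.3 ± 2.0 TPM in WT at P21, where 2 of the 3 Kir libraries were low.

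Gap43 averaged 192 ± 66.0 TPM in Kir and 273 ± 105 TPM in WT at P0, 501 ± 154 TPM in Kir and 403 ± 70.1 TPM in WT at P7 (SD, n = 4 each at both ages), and 419 ± 76.8 TPM in Kir and 315 ± 37.8 TPM in WT at P21 (n = 3 each).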
